A study of Mus musculus with 18 samples.

Results

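The cytosolic ribosomal protein genes were followed through nuclei of the mouse hippocampus (Hip) and prefrontal cortex (PFC). Members were chosen by gene symbol alone, as names that begin with Rpl or Rps followed by a digit or a p, together with Rpsa and without the S6 kinases and pseudogenes. This gave 86 of the 30905 genes counted, of which 52 belonged to the large subunit and 34 to the small subunit by their names. The 34 hold Rps19bp1, which encodes a binding partner of Rps19 and not a ribosomal protein. A unique molecular identifier (UMI), the tag that marks a single captured RNA molecule, was found in at least 1 library for 84 members, and 83 passed the filter on low counts in all nuclei. The 3 members outside the filter were Rpl13 and Rpl10l, each with 0 UMIs in the 18 libraries, which allows up to 3 UMIs over all of them, and Rpl39l with 16 UMIs. Rpl13 shares its strand and position with the annotated gene Gm20388, so that reads of this place cannot be told apart.

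Kun Ming mice of 3 groups were compared, all at the age of 8 weeks. Germ-free (GF) mice lived in isolators without microbes, specific pathogen-free (SPF) mice carried a flora free of named pathogens, and colonized germ-free (CGF) mice had been housed together with SPF mice from their juvenile weeks on. Each group held 3 mice, and each of the 9 mice gave a library from Hip and a library from PFC, 18 in all. Nuclei were taken from frozen tissue and captured in droplets with a 10x Genomics kit that counts RNA near its 3′ end. SPF mice were raised apart from GF and CGF mice, so rearing and flora cannot be told apart in GF vs SPF.

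Every cytosolic ribosome joins a small subunit, which reads the mRNA, to a large subunit, which makes the peptide bond, and the ribosomal proteins are needed in near equal amounts. Their mRNAs belong to the class that starts with a cytosine inside a run of pyrimidines, the 5′ terminal oligopyrimidine (TOP) motif, through which mTOR signalling sets their translation. Translation takes place in the cytoplasm, so a library of nuclei holds only the part of these mRNAs that was still in the nucleus, together with cytoplasmic RNA carried along. Some members have a paralog, such as Rpl22l1 beside Rpl22 and Rpl7l1 beside Rpl7, or a second protein in the same reading frame, such as the ubiquitin of Rps27a.

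The start sites of members on which the results turn are printed here, since the TOP motif is the sequence feature that names this gene class. Of the 86 members, 66 were matched by symbol in the RefSeq promoter table (GRCm38.p6). Each line gives 30 bases of the transcribed strand, 8 before the annotated start and 22 from it on, and capitals mark the longest run of at least 5 C or T bases that begins with C within 5 bases of the start.
Rpl28, chr7:4792957-4792986, plus strand: tcgtgtCTCTCTTTCCgtctccggccgcca
Rpl7a, chr2:26910799-26910828, plus strand: cttCTTTCTTTCTCCagcagccgagcaaga
Rpl22l1, chr3:28805500-28805529, plus strand: gcaagcccgttCTCTTCCCacggctgcagc
Rps21, chr2:180257371-180257400, plus strand: gacccgCCCTCCTgcccaatagtgctgcgg
Rps13, chr7:116334169-116334198, minus strand: aacgtcggtgagtggcgtcacttcctgtgc
Rpl4, chr9:64173379-64173408, plus strand: tcctgtgggagcagccgggtagagaggagc
Rpl26, chr11:68901558-68901587, plus strand: caacttacagaaccggaagtcgcgtgtagt
A run of this kind was found at a start of 30 of the 66 matched members (45.5%) and of 5688 of the 26959 other genes in the table (21.1%). The share was 42.5% for 40 large subunit members and 50.0% for 26 small subunit members. The lines of Rps13, Rpl4 and Rpl26 hold no run by this rule, which says only that these letters do not stand at these annotated starts.

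The libraries held 20336250 to 71463928 UMIs, and 138000 of 139924 nuclei passed the filter. The 6 PFC libraries of SPF and CGF mice stood apart from the other 12 libraries. They held 20336250 to 26949210 UMIs against 59126586 to 71463928 in GF PFC, and 1.20 to 2.39% of their UMIs were in Gm42418, a gene that overlaps ribosomal RNA sequence, against 0.0117 to 0.0188% in GF PFC. Mitochondrial UMIs made up 1.21 to 2.86% of these libraries and 0.305 to 0.556% of the GF PFC libraries. All comparisons within Hip use none of the 6 libraries. Every GF vs SPF or GF vs CGF value in PFC rests on them, as does every value between regions in SPF or CGF mice. The 6 GF libraries in turn differed from the other 12, in Hip as well as in PFC. In PFC Malat1, a nuclear RNA, made up 6.33 to 6.91% of UMIs in GF and 3.01 to 3.89% in SPF and CGF libraries. In Hip Gm42418 made up 0.0225 to 0.0315% in GF and 0.0574 to 0.171% in SPF and CGF libraries. Malat1 in Hip is given below. The part of these differences in the results was not tested. Nuclei were assigned to 6 cell types by marker lists, and 96.35 to 99.37% of the nuclei of a type lay in a cluster of the same name. The clusters were named by the same marker lists, so this is not a separate check of the types. In each library 1385 to 2738 nuclei were left without a type. Any pair of libraries shared at most 29 barcodes. Ttr, which marks choroid plexus, ran from 6.47 to 2607 CPM between the Hip libraries of the GF mice, which held 5 to 126 nuclei gated as choroid plexus.

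In Hip, ribosomal protein genes took a larger share of the UMIs in GF mice than in SPF or CGF mice. The share in all nuclei was 0.196, 0.260 and 0.236% in GF mice 5, 6 and 7. It was 0.0812, 0.0876 and 0.130% in SPF mice 30, 31 and 32, and 0.0679, 0.0773 and 0.113% in CGF mice 17, 18 and 19. Each GF library lay above the 6 others of the region, and SPF and CGF libraries overlapped. GF mice had a mean of 0.231% ± 0.032, SPF mice 0.0997% ± 0.0267 and CGF mice 0.0861% ± 0.0237 (SD, n = 3), so the GF mean was 2.31 times the SPF mean. In a sum over all nuclei, a change in the mix of cell types and a change of RNA within a type cannot be told apart, and the share was therefore also taken in each type. The ratio of GF to SPF was 2.55 in excitatory neurons, 2.49 in interneurons, 2.22 in oligodendrocytes, 1.96 in microglia and 2.31 in astrocytes, and in each of the 6 types, oligodendrocyte precursor cells (OPC) included, the lowest GF mouse lay above the highest SPF mouse. Large and small subunit members moved together, and GF mice had 1.65 ± 0.01, SPF mice 1.64 ± 0.04 and CGF mice 1.70 ± 0.01 large subunit UMIs for each small subunit UMI (SD, n = 3).

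**Figure D1:**
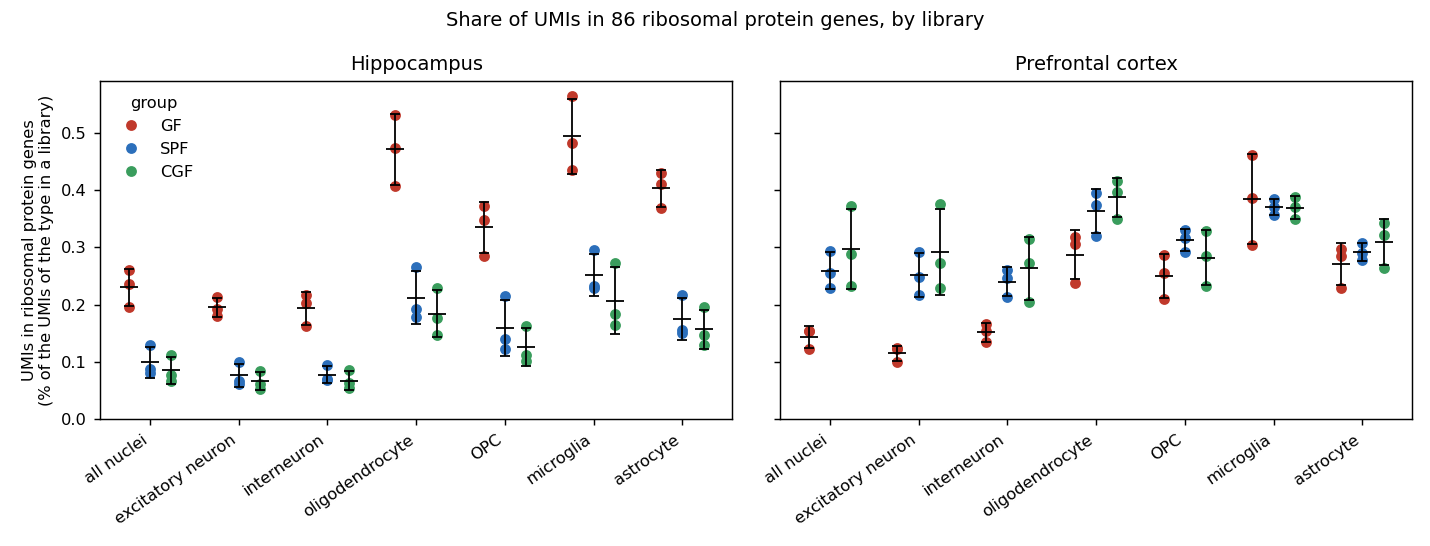
Share of UMIs in the 86 ribosomal protein genes, in percent of all UMIs of a cell type in a library, for Hip (left) and PFC (right). Points are single libraries coloured by group, and black bars give the mean and SD of 3 mice. In Hip the GF points of all nuclei (0.196 to 0.260%) lie above the SPF points (0.0812 to 0.130%), and in PFC they lie below.

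In PFC the order was turned around in neurons and was lost in microglia and astrocytes. The share in all nuclei was 0.155, 0.122 and 0.155% in GF mice 5, 6 and 7. In SPF mice 30, 31 and 32 it was 0.293, 0.256 and 0.229%, and in CGF mice 17, 18 and 19 it was 0.289, 0.233 and 0.371%. All 3 GF libraries lay below the other 6. The ratio of GF to SPF was 0.459 in excitatory neurons, 0.633 in interneurons, 0.792 in oligodendrocytes and 0.800 in OPC, with no overlap of GF and SPF mice. In OPC the gap was small, with the highest GF mouse at 0.2868% and the lowest SPF mouse at 0.2928%. GF and CGF mice overlapped in OPC, where CGF mice had 0.2328 to 0.3281%. In microglia the means were 0.384% ± 0.078 in GF and 0.370% ± 0.014 in SPF mice, in astrocytes 0.271% ± 0.037 and 0.292% ± 0.016 (SD, n = 3), and both pairs overlapped. The ratio of large to small subunit UMIs was 1.44 to 1.59 in the 6 PFC libraries of SPF and CGF mice and 1.60 to 1.72 in the other 12 libraries.

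Gene by gene, GF vs SPF was tested in Hip with edgeR on UMIs summed per mouse. Of the 83 members tested in all nuclei, 68 rose in GF mice and 1 fell, beside 24.7% of all 19833 genes that rose and 20.4% that fell. The median log2 fold change of the members was 0.99, and that of all genes was 0.03. The small subunit had 31 of 34 members higher with a median of 1.15, and the large subunit had 37 of 49 members higher with a median of 0.96. The middle part of the members was narrow, with quartiles at 0.75 and 1.28 on the log2 scale and a median standard error of 0.21.

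In each of the 6 types, too, a larger share of the members than of all genes rose. In excitatory neurons 71 of 83 members rose (25.6% of all genes), in interneurons 59 of 73 (21.6%) and in oligodendrocytes 46 of 63 (17.6%). In OPC 28 of 44 members rose (10.7% of all genes), in microglia 30 of 43 (10.5%) and in astrocytes 48 of 65 (17.5%). The medians of the members ran from 1.05 in OPC to 1.17 in astrocytes. For OPC the count dropped to 17 with GF mouse 7 left out and to 18 with SPF mouse 30 left out. The shares of all genes in these fits are not given, so a loss particular to members cannot be told apart. Members are short genes, with a median span of 3.33 kb against 12.6 kb for all genes, and a trend of expression on length and GC was therefore taken out of every library as an alternative. Then 42 of 83 members rose in all nuclei with a median of 0.48 (17.2% of all genes). In excitatory neurons 42 of 83 rose with a median of 0.47 (17.2%). In interneurons 12 of 73 rose (10.6%), in oligodendrocytes 12 of 63 (9.31%) and in astrocytes 12 of 65 (9.18%). The medians in these 3 types were 0.35, 0.29 and 0.33. In OPC 5 of 44 members rose and 3 fell with a median of 0.17 (3.69 and 2.86% of all genes), and in microglia 5 of 43 rose and 3 fell with a median of 0.26 (3.88 and 2.07%). In GF Hip libraries 6.71 to 7.36% of UMIs were Malat1, a nuclear RNA, against 2.91 to 3.28% in the other Hip libraries, and mitochondrial UMIs were 0.451 to 0.879% against 0.0686 to 0.429%. Markers of excitatory neurons made up 0.268 to 0.314% of the UMIs in GF microglia of Hip, 0.182 to 0.237% in SPF and 0.134 to 0.201% in CGF microglia. Astrocyte markers in Hip microglia went the other way, at 0.2416 to 0.2525% in GF and 0.3199 to 0.4043% in SPF mice. So did oligodendrocyte markers, at 0.0402 to 0.0631% and 0.0796 to 0.1133%, while interneuron and OPC markers overlapped. In excitatory neurons of Hip their own markers made up 0.3018 to 0.3301% in GF and 0.2136 to 0.2502% in SPF mice. The part of these differences in the result was not tested.

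Among the members with the highest and lowest fold changes in Hip was Rps21, a protein of the small subunit. It had 13.8, 13.2 and 12.7 counts per 1000000 UMIs of the scaled library size (CPM) in GF mice 5, 6 and 7. It had 2.85, 3.00 and 2.95 CPM in SPF mice 30, 31 and 32. The 2 groups were far apart, and the rise of 2.17 ± 0.11 (log2, SE) was the highest of the members (adjusted p = 3.43e-05 by edgeR over all genes). Rpl22l1 rose by 1.82 ± 0.17 (adjusted p = 0.00011 by edgeR), and Rps2, which lies at the mRNA entry of the small subunit, by 1.53 ± 0.20 (adjusted p = 0.00042). At the other end stood Rpl7a, a large subunit protein, with 1.28, 0.919 and 0.940 CPM in GF and 1.78, 2.13 and 1.39 CPM in SPF mice. It fell by 0.75 ± 0.22 on the log2 scale (adjusted p = 0.019 by edgeR) and also fell in excitatory neurons, by 0.77 ± 0.27 (adjusted p = 0.039), where 81 of the 83 members lay above 0. Rpl28 and Rpl4 did not pass the test, at 0.02 ± 0.24 and 0.18 ± 0.25 (adjusted p = 0.95 and 0.59 by edgeR).

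The members with well known roles mostly followed the group in Hip. The acidic stalk recruits elongation factors to the large subunit, and its proteins Rplp0, Rplp1 and Rplp2 rose by 1.10 ± 0.30, 0.98 ± 0.32 and 1.07 ± 0.12 on the log2 scale. Rps6, the substrate of the S6 kinases, rose by 0.92 ± 0.27, and Rps27a, which is made as a fusion with ubiquitin, by 1.33 ± 0.25. Rpl5 and Rpl11, which bind Mdm2 when ribosome assembly is disturbed, rose by 0.53 ± 0.10 and 0.96 ± 0.19. Rpsa, the laminin receptor homolog of the small subunit, had 0.57 ± 0.23 (adjusted p = 0.069 by edgeR), and Rpl3, which reaches towards the peptidyl transferase centre, had 0.22 ± 0.12 (adjusted p = 0.16), both short of the threshold. With the length and GC trend removed, Rplp0, Rplp1, Rps6 and Rpl5 no longer passed, at 0.54, 0.26, 0.23 and 0.20.

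In PFC, more members fell than rose in GF vs SPF. Of 83 members tested in all nuclei, 52 fell and 10 rose, beside 30.8 and 32.2% of all 18401 genes. The median log2 fold change was -0.69, with -0.69 for the large and -0.70 for the small subunit, and 0.02 for all genes. In excitatory neurons 54 of 82 members fell and 6 rose (30.4 and 31.9% of all genes), and in interneurons 37 of 79 fell and 7 rose (26.3 and 27.8%). In oligodendrocytes 12 of 41 fell and 3 rose (18.2 and 18.7% of all genes), and in astrocytes 15 of 54 fell and 8 rose (22.6 and 21.4%). In OPC 9 of 31 fell and 2 rose (16.2 and 15.4%), with a median of -0.01. In microglia 5 of 29 fell and 3 rose (17.2 and 15.1%), shares near those of all genes, with a median of 0.05. With GF mouse 6 left out, 7 fell in oligodendrocytes and 9 in astrocytes. With SPF mouse 32 left out, 5 fell in oligodendrocytes, and with SPF mouse 31 left out, 3 fell in microglia. The shares of all genes with a mouse left out are not given, so a change particular to members cannot be read from these counts. With the libraries thinned to equal depth, 0 of 13 members fell in OPC, 2 of 15 in microglia and 7 of 41 in astrocytes (13.3, 12.4 and 18% of all genes). With a stricter gate 1 of 14, 2 of 12 and 6 of 39 fell (14.9, 21.1 and 21.1%), so fewer members passed the filter under both alternatives. The median in astrocytes was -0.23 over 54 members and 0.17 and 0.20 over these fewer members. With the length and GC trend removed, 74 members fell in all nuclei with a median of -1.27 (35.4% of all genes). In OPC 9 of 31 then fell and 2 rose (15.2 and 12.6%), with a median of -0.27. In microglia 11 of 29 then fell and 2 rose (14.9 and 12.5%), and the median turned to -0.58, so neither the count nor the direction in microglia was stable. In astrocytes 34 of 54 then fell with a median of -0.70 (21.8%), in interneurons 62 of 79 (29.6%) and in oligodendrocytes 19 of 41 (16.9%), so the astrocyte values moved in opposite directions under these alternatives. Glia of GF PFC also held more UMIs of excitatory markers, 0.314 to 0.349% in microglia against 0.146 to 0.219% in SPF mice. Astrocyte markers in microglia of PFC overlapped, at 0.2304 to 0.2689% in GF and 0.2375 to 0.3781% in SPF mice. The part of these values in the result was not tested.

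Some members of both subunits fell in PFC by more than the lower quartile of the group, which was -1.18 on the log2 scale. Rpl28 had 1.11, 1.07 and 1.09 CPM in GF PFC of mice 5, 6 and 7, and 46.4, 39.4 and 38.2 CPM in SPF PFC of mice 30, 31 and 32. In CGF PFC of mice 17, 18 and 19 it had 29.5, 40.4 and 46.3 CPM, while the 9 Hip libraries had 1.17 to 2.00 CPM. Every PFC library of SPF and CGF mice thus lay above the 12 others, and the log2 fold change of GF vs SPF in PFC was -5.23 ± 0.18 (adjusted p = 1.78e-09 by edgeR). It was -5.07 ± 0.19 in excitatory neurons, -5.55 ± 0.31 in interneurons, -5.13 ± 0.57 in oligodendrocytes, -5.45 ± 0.66 in OPC and -5.66 ± 0.39 in astrocytes. In OPC the GF PFC libraries held 584762 to 752155 UMIs and the SPF PFC libraries 140412 to 211714. At the CPM of Rpl28 in GF PFC its glial counts lie near the floor, so the size of the fall in glia is uncertain. Rpl28 overlaps Ube2s on the opposite strand. Rpl36 had 8.97 to 9.40 CPM in GF PFC and 30.1 to 35.8 CPM in SPF PFC, a fall of 1.85 ± 0.12 on the log2 scale, while it rose by 1.43 ± 0.17 in Hip. Rpsa fell by 2.30 ± 0.13 in PFC, Rpl7a by 2.35 ± 0.20 and Rps2 by 1.37 ± 0.13 on the log2 scale.

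Other members were higher in GF mice in PFC, against most of the group. Rpl22l1, the paralog of Rpl22, had 50.0, 57.3 and 51.4 CPM in Hip and 39.8, 28.2 and 36.9 CPM in PFC of GF mice 5, 6 and 7. The 12 libraries of SPF and CGF mice had 10.9 to 18.9 CPM, so that the 6 GF libraries lay above all others. In PFC it rose by 1.59 ± 0.15 (log2, adjusted p = 3.06e-06 by edgeR) and passed in all 6 types, by 1.60 to 2.91. Its difference between regions was 0.24 ± 0.23 (adjusted p = 0.40 by edgeR). Rpl22 itself, which binds RNA outside the ribosome as well, rose by 0.79 ± 0.15 in Hip and fell by 0.73 ± 0.13 in PFC. Rpl22l1 overlaps Gm33051 on the opposite strand.

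Rps13, a small subunit protein, had 15.0 to 17.4 CPM in GF Hip and 11.9 to 12.7 CPM in GF PFC, and 4.01 to 7.49 CPM in the other 12 libraries. It rose by 1.35 ± 0.10 in Hip and by 1.46 ± 0.16 in PFC (log2, adjusted p = 4.54e-05 and 8.38e-06 by edgeR). Rpl7l1 rose by 0.84 ± 0.08 in Hip and by 0.75 ± 0.13 in PFC, and Rpl18 by 1.42 ± 0.25 and 0.87 ± 0.12. Rps21 had 11.4 to 11.8 CPM in GF PFC, 7.66 to 8.37 CPM in SPF PFC and 9.49 to 9.95 CPM in CGF PFC. It rose by 0.55 ± 0.10 in PFC (adjusted p = 0.00066 by edgeR), although it was at -0.33 with the length and GC trend removed. Rpl36al, Rps4x and Rps27l rose by 0.45 ± 0.17, 0.41 ± 0.15 and 0.51 ± 0.18 in PFC, and all 3 missed the threshold without library scaling factors. With that trend removed, Rps4x and Rps27l turned to -0.55 and -0.89, and Rpl36al shares its strand with Gm49383. Rpl19 was at -0.00 ± 0.17 in all nuclei of PFC but rose by 0.66 ± 0.23 in oligodendrocytes, by 1.28 ± 0.33 in OPC and by 1.13 ± 0.20 in astrocytes.

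**Figure D2:**
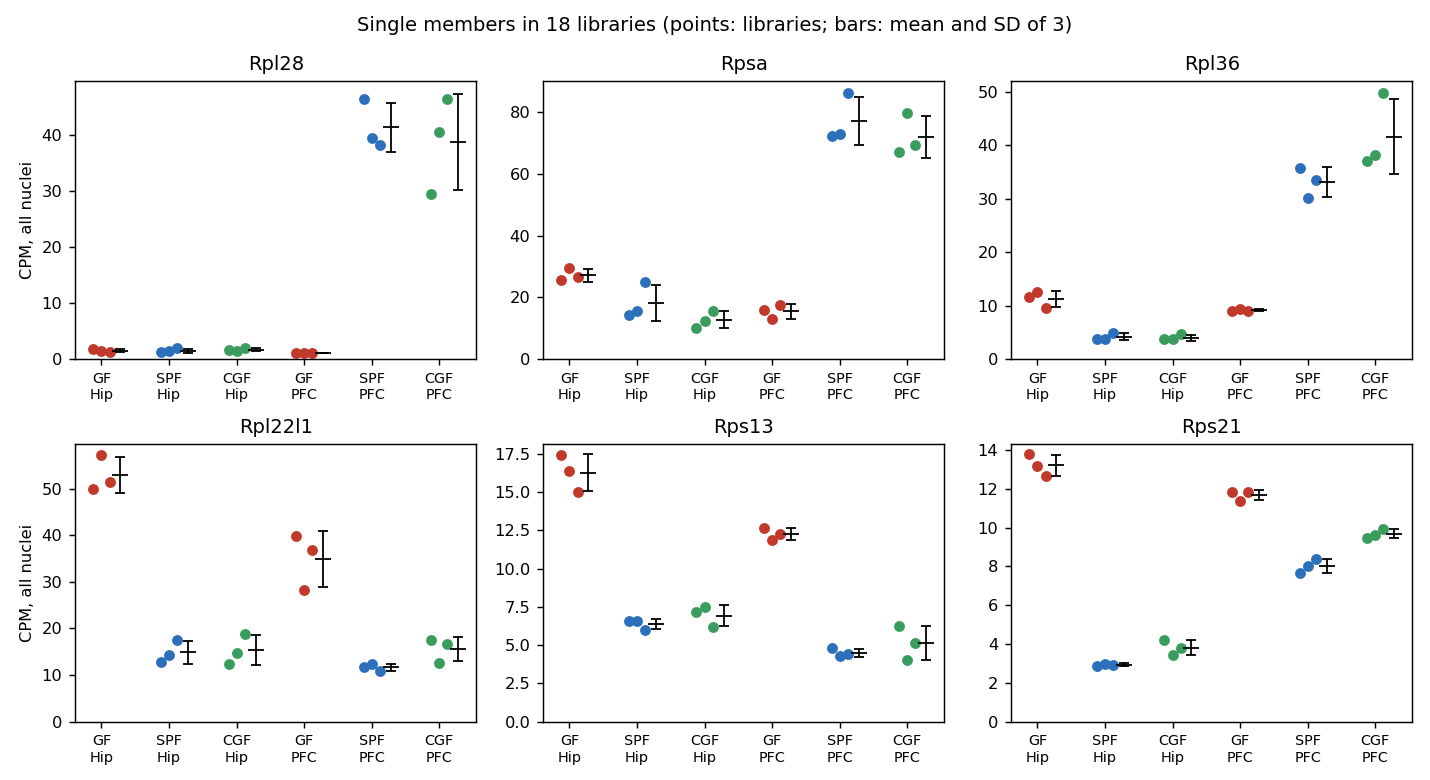
CPM over all nuclei of 6 single members, with points for the 18 libraries coloured by group and bars for the mean and SD of 3 mice; the vertical axes start at 0 and differ between panels. Rpl28, Rpsa and Rpl36 are high in the 6 PFC libraries of SPF and CGF mice (Rpl28 at 29.5 to 46.4 CPM), while Rpl22l1 and Rps13 are high in the 6 GF libraries (Rpl22l1 at 28.2 to 57.3 CPM).

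GF vs CGF compares mice without and with later colonization and used the same GF libraries as GF vs SPF. CGF mice were also housed with an unfamiliar SPF mouse, which the paper names as a possible stress. Company and flora thus cannot be told apart in GF vs CGF. In Hip 71 of 83 members rose in GF mice (24% of all genes), with 70 of 83 in excitatory neurons (25.1%) and 36 of 43 in microglia (12.3%), and the median in all nuclei was 1.10. In PFC 61 of 83 members fell (29.9% of all genes), with 65 of 82 in excitatory neurons (30.2%), and the median in all nuclei was -0.92. In microglia of PFC 5 of 29 fell (15.1% of all genes), a share near that of all genes, and this count ran from 1 with a stricter gate to 11 with clusters in place of the gate. For these alternatives the share of all genes is not given, so a result about the members cannot be read from this range. Rpl22l1 rose by 1.79 ± 0.17 in Hip and by 1.18 ± 0.15 in PFC, and Rpl28 had -0.16 ± 0.24 in Hip and fell by 5.13 ± 0.18 in PFC. When the length and GC trend was removed, 46 members rose in all nuclei of Hip (18.4% of all genes), 45 in excitatory neurons (18.2%) and 4 in microglia (3.5%). In PFC 73 then fell in all nuclei (34.2%) and 9 in microglia (14.3%). The medians in all nuclei were then 0.61 in Hip and -1.42 in PFC.

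CGF vs SPF showed 0 of 83 members past the threshold in Hip and 0 of 83 in PFC with edgeR, beside 0.333 and 0.418% of all genes in either direction. At an unadjusted p under 0.05 there were 7 members in Hip and 20 in PFC, beside 14.6 and 13.8% of all genes. DESeq2 called 0 in Hip and 1 in PFC, and without CGF mouse 18 edgeR called 2 in PFC. For these alternatives the share of all genes is not given. The medians were -0.09 in Hip and 0.19 in PFC.

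Hip was then compared with PFC in the same animals. In GF mice 38 of 83 members were higher in Hip in all nuclei (14.2% of all 20773 genes) and none was lower, with a median of 0.45. In excitatory neurons 44 of 83 were higher (17%). In microglia 0 of 56 passed with edgeR (1.36% of all genes), 17 had an unadjusted p under 0.05 (10.5% of all genes), and DESeq2 called 0. The count in GF mice depended on GF mouse 6, which had the highest share of the GF mice in Hip and the lowest in PFC. Without this mouse it was 1 in all nuclei and 7 in excitatory neurons, and without GF mouse 7 it was 9 and 28. For these fits the share of all genes is not given, so a loss of calls among members and among all genes cannot be told apart. With the length and GC trend removed the count was 22 and 28 (12.8 and 16.4% of all genes).

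In SPF mice the regions stood the other way round. Of 83 members, 71 were lower in Hip (32.1% of all genes) with a median of -1.22, and in excitatory neurons 70 of 83 were lower (31.7%). In microglia 19 of 56 were lower (10.8%), and 9 with any of the SPF mice 30, 31 and 32 left out, fits for which the share of all genes is not given. In CGF mice 76 of 83 members were lower in Hip (32.7%) with a median of -1.39. Rpl28 differed most in SPF mice, at -4.79 ± 0.20, while Rps13 was higher in Hip by 0.51 ± 0.14. The 21 tested members that overlap a gene on the opposite strand had a median of -1.41 in SPF mice and the 62 others had -1.18.

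The test of the difference itself asked whether GF vs SPF differed between the regions. In all nuclei 75 of 83 members passed with a higher fold change in Hip (24.2% of all genes) and none with a lower one, with a median difference of 1.63 on the log2 scale. In excitatory neurons 76 of 83 passed (22.6%), in interneurons 57 of 79 (19.2%), in oligodendrocytes 38 of 72 (8.92%), in OPC 20 of 57 (6.73%) and in astrocytes 36 of 77 (10.9%). In microglia 11 of 56 passed (4.31%), and 7 with GF mouse 6 or SPF mouse 31 left out and 6 with SPF mouse 32 left out, while 18 passed with the length and GC trend removed (4.72% of all genes). With a mouse left out the share of all genes is not given. Rpl28 had a difference of 5.26 ± 0.29 and Rpl36 of 3.29 ± 0.20. For Rps13, Rpl7l1 and Rpl18 the differences of -0.10 ± 0.19, 0.10 ± 0.15 and 0.57 ± 0.28 did not pass (adjusted p = 0.69, 0.59 and 0.099 by edgeR). The SPF libraries of PFC, which stand apart in depth and mitochondrial UMIs, enter each of these differences, and library and region cannot be told apart in them.

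**Figure D3:**
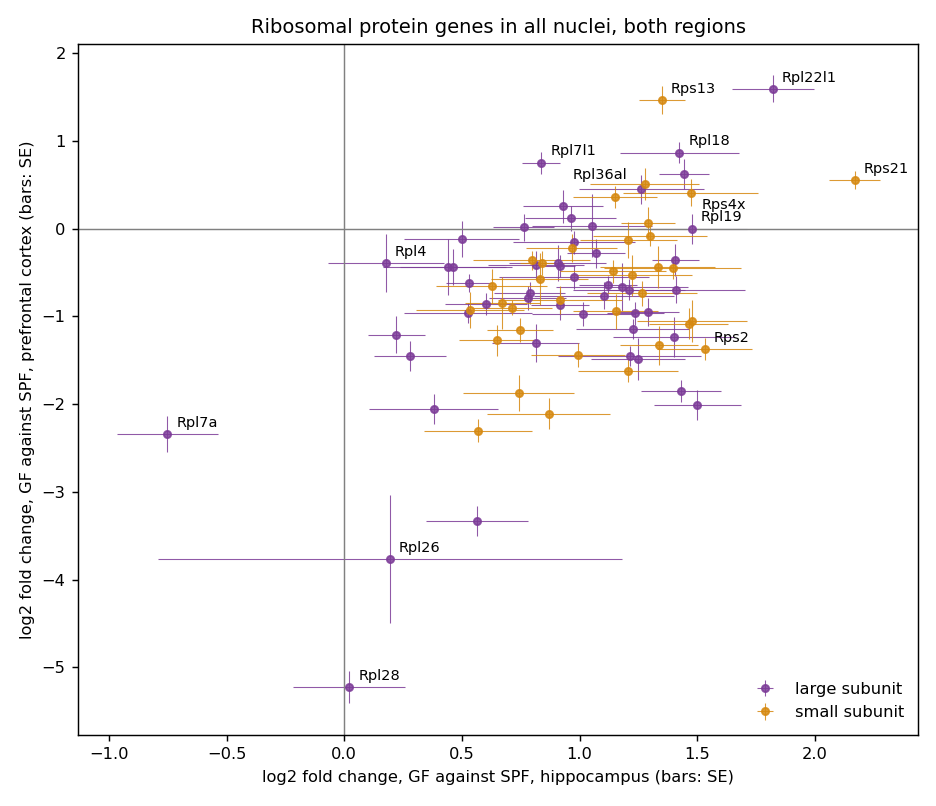
Log2 fold change of GF vs SPF in all nuclei of Hip (horizontal axis) against that in PFC (vertical axis) for the 83 tested members, with standard errors and colours for the large and small subunit. Most members lie to the right of 0 and below 0, Rpl28 sits lowest at -5.23 in PFC, and Rpl22l1, Rps13, Rpl18 and Rpl7l1 lie above 0 on both axes.

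Rpl26, a large subunit protein that also binds the mRNA of p53, had by far the widest spread between mice of a group. In GF mice 5, 6 and 7 it had 1.53, 16.4 and 1.79 CPM in Hip and 1.37, 8.92 and 1.43 CPM in PFC. In SPF mice 30, 31 and 32 it had 1.24, 6.69 and 9.39 CPM in Hip and 25.8, 70.8 and 62.9 CPM in PFC. In CGF mice 17, 18 and 19 it had 5.09, 1.30 and 1.55 CPM in Hip and 74.1, 25.9 and 21.0 CPM in PFC. The mice that were high for their group in Hip, namely GF 6, SPF 31 and 32 and CGF 17, were also the high ones in PFC. The deviations from the group means had an SD of 1.11 in Hip and 0.86 in PFC on the log2 scale, and for the next member by the smaller of both SDs, Rpl41, they were 0.32 and 0.36. GF vs SPF was 0.19 ± 0.99 in Hip (adjusted p = 0.89 by edgeR) and -3.77 ± 0.73 in PFC (adjusted p = 0.00075).

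**Figure D4:**
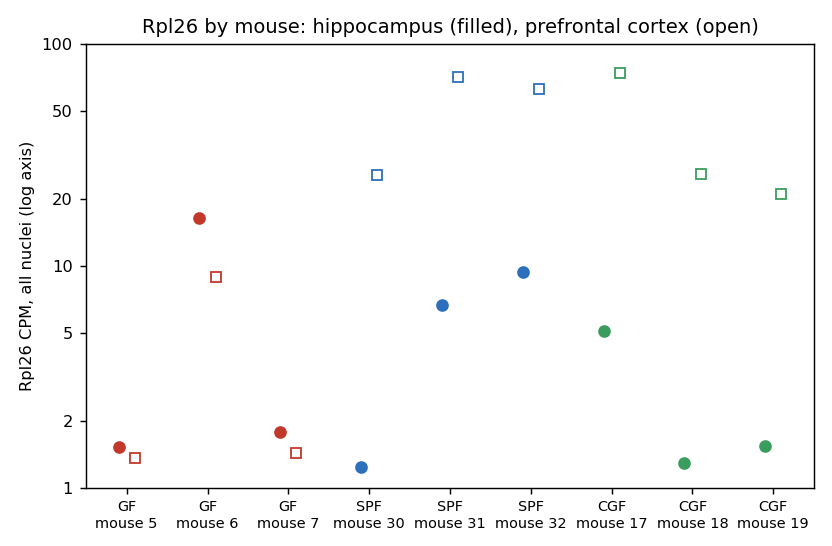
Rpl26 in CPM over all nuclei on a log axis, with Hip as filled circles and PFC as open squares for each of the 9 mice, coloured by group. GF mouse 6 (16.4 and 8.92 CPM) stands above the other 2 GF mice in both regions, and SPF mouse 30 stands below the other 2 SPF mice in both.

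Between cell types in Hip, glia gave members a larger part of their UMIs than neurons did. Within a Hip library the share in microglia was 2.41 to 3.65 times that in excitatory neurons, in oligodendrocytes 2.26 to 2.86 times and in astrocytes 2.02 to 2.43 times, in OPC 1.59 to 2.17 times and in interneurons 0.901 to 1.09 times. Depth per nucleus ran the other way. In SPF Hip the median UMIs per nucleus were 1750.5 to 2305 in microglia, 2272 to 2947 in oligodendrocytes and 2864 to 3405 in astrocytes. They were 3347 to 3947 in OPC, 8611 to 9186 in interneurons and 8896 to 9803 in excitatory neurons. The part of depth in the order of the types was not tested. In PFC the libraries fell into 2 sets that did not overlap. In the 3 GF libraries the share was 3.04 to 3.73 times that in excitatory neurons for microglia, 2.38 to 2.57 times for oligodendrocytes, 2.28 to 2.40 times for astrocytes and 2.07 to 2.31 times for OPC. In the 6 SPF and CGF libraries that stand apart it was 1.04 to 1.77, 1.10 to 1.82, 0.858 to 1.28 and 0.875 to 1.35 times in the same order. Astrocytes of SPF mouse 30 and astrocytes and OPC of CGF mouse 19 had a lower share than the excitatory neurons of their PFC library. Each type was tested against the mean of the other 5 types with the library as a block. In Hip, of 67 members tested, 47 were higher in oligodendrocytes (31.5% of all 13125 genes), 41 in microglia (25.4%) and 43 in astrocytes (36.4%), with medians of 0.61, 0.44 and 0.37. In excitatory neurons 51 were lower (40.6%) and in interneurons 52 (39.8%), with medians of -0.66 and -0.77. In OPC 3 members differed in either direction (43% of all genes), and the count was 5 with GF mouse 5 or SPF mouse 30 left out and 0 with SPF mouse 32 left out. The share of all genes with a mouse left out is not given.

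In PFC the same test pooled the 3 GF libraries with the 6 that stand apart. Of 61 members tested, 26 were higher in oligodendrocytes (18.5% of all 10948 genes), 26 in microglia (21.2%) and 9 in astrocytes (29.3%). In excitatory neurons 35 members were lower (34.2%) and in interneurons 45 (31.9%). In OPC 2 members differed (36%), and 1 differed with GF mouse 5, SPF mouse 32 or CGF mouse 19 left out and 5 with GF mouse 7 left out. The counts in microglia and astrocytes of PFC were 46 and 5 without library scaling factors, 11 and 21 with clusters in place of the gate, and 27 and 3 with a stricter gate. They thus depend on the scaling and on how nuclei are assigned. The shares of all genes under these alternatives and with a mouse left out are not given, so whether members moved apart from all genes cannot be read from these counts.

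Among the members with the highest value in a type, Rpl11 went against most members called in interneurons and in microglia, while Rpl3, Rplp0, Rps16 and Rpl36 had the direction of the members called in their type. Rpl11 was higher in interneurons, by 0.68 ± 0.10 in Hip and 0.86 ± 0.12 in PFC (log2), and lower in microglia, by -0.57 ± 0.19 and -1.13 ± 0.28, where 41 of 67 members in Hip and 26 of 61 in PFC were higher. Rpl3 was higher in microglia by 0.76 ± 0.27 in Hip and by 1.55 ± 0.21 in PFC. The stalk protein gene Rplp0 was higher in oligodendrocytes by 0.78 ± 0.07 and 0.82 ± 0.13, and Rps16 in astrocytes by 0.68 ± 0.08 and 0.32 ± 0.11. Rpl36 was lower in excitatory neurons by -0.23 ± 0.10 and -0.24 ± 0.08, the highest value among the members called there in both regions.

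**Figure D5:**
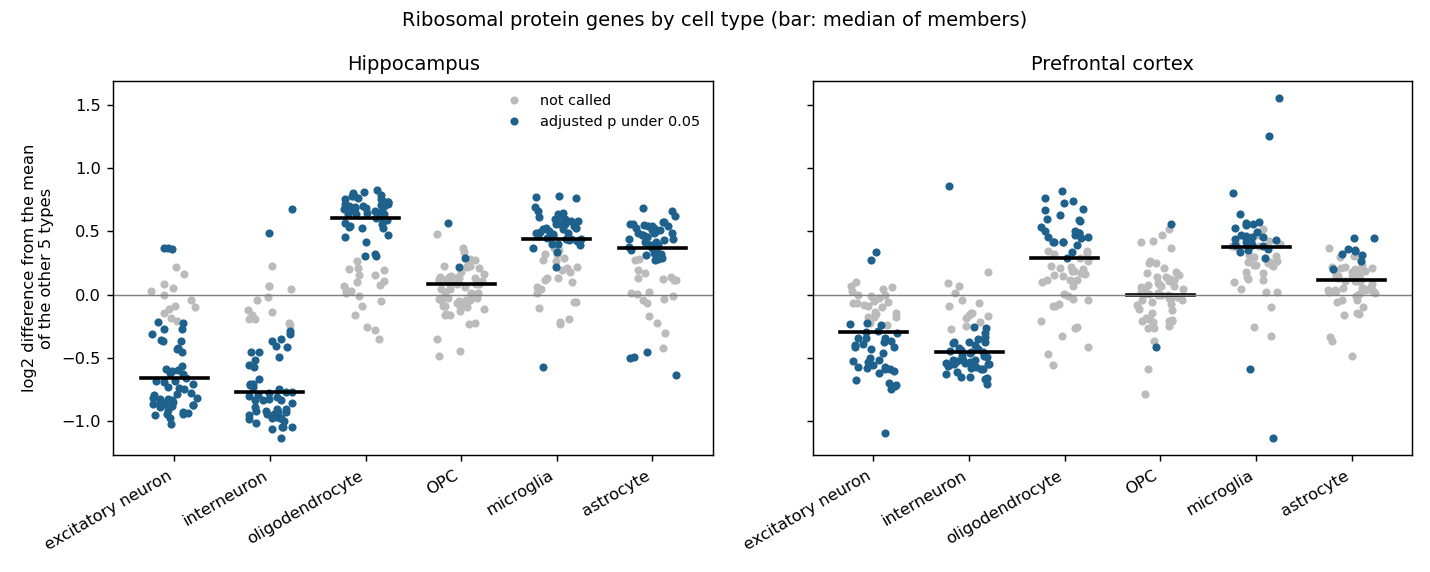
Log2 difference of each tested member in a cell type from the mean of the other 5 types, in Hip (left) and PFC (right), with called members in blue, others in grey and a black bar at the median. The medians fall from 0.61 in oligodendrocytes to -0.77 in interneurons of Hip and run from 0.37 in microglia to -0.45 in interneurons over the 9 PFC libraries.

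Paralogs and other genes that entered by name differed widely in abundance. Rpl3l, known from muscle, had 308 UMIs in the 18 libraries and 0.44 ± 0.27 in Hip (log2, adjusted p = 0.22 by edgeR). Rps27rt, a retrogene copy of Rps27 that may share reads with it, had 57168 UMIs against 1052 for Rps27, with 0.63 ± 0.24 in Hip (adjusted p = 0.056) and a fall of 0.66 ± 0.20 in PFC. Rps19bp1, the binding partner of Rps19, rose by 1.21 ± 0.21 in Hip and fell by 1.62 ± 0.13 in PFC.

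Lists of the same machinery were set beside the members. Of 20 other genes with TOP mRNAs, 12 rose and 3 fell in GF vs SPF in all nuclei of Hip with a median of 0.49, and 2 rose and 12 fell in PFC with a median of -0.32. Of all genes, 24.7% rose and 20.4% fell in Hip, and 32.2% rose and 30.8% fell in PFC. Fau, which encodes a ribosomal protein as a fusion, rose by 1.18 ± 0.12 in Hip and fell by 0.84 ± 0.16 in PFC on the log2 scale. The elongation factor gene Eef1d rose by 0.68 ± 0.13 and fell by 2.21 ± 0.15, while Eif3e, of an initiation factor, fell by 0.48 ± 0.07 in Hip. Of 30 genes of nucleolar ribosome assembly, 10 rose and 5 fell in Hip with a median of 0.13, shares near those of all genes, and 4 rose and 23 fell in PFC with a median of -0.73. Of 76 mitochondrial ribosomal protein genes tested, 60 rose and 2 fell in Hip with a median of 0.91, and 32 rose and 22 fell in PFC with a median of 0.19.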

How the data were processed

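Droplet-based snRNA-seq was performed on Hip and PFC of 9 mice. The authors deposited whole-number UMI counts per gene and nucleus for each of 18 libraries, without normalization. The matrix headers name Cell Ranger 3.1.0, as do the methods of the study, whereas the series text names 2.1.0; the reference was mm10. Whether intronic reads were counted is not given in the sources used here. Groups, regions and mouse numbers came from the labels. In the tests between groups within a region the mouse is the replicate, and p-values measure the spread between these mice. The main fit for regions took the 2 libraries of a mouse as separate, and the mouse was a block only in an alternative. The cell type test used 54 sums per region. Its p-values measure the spread of these sums once the level of each library is taken out.

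Nuclei with at least 200 genes and at most 10% mitochondrial UMIs were kept, 138000 of 139924. Nuclei were gated to 6 types by markers, and a nucleus with markers of another type above a limit was left out, which takes the place of a doublet caller; 97 to 356 nuclei per library were gated as microglia and 2523 to 4055 as excitatory neurons. UMIs were summed per library and type and fitted over all genes with edgeR 4.0.16 in R 4.3.3 (filterByExpr, TMM factors, quasi-likelihood F test, Benjamini-Hochberg threshold 0.05), with 9 libraries of a region or 18 for regions. CPM is UMIs per 1000000 UMIs of a library, with the library size scaled by its TMM factor in the fit of 18 libraries. Standard errors are given after ±. DESeq2 1.42.0 was an alternative, as were no TMM factors, no filter, thinning to equal depth, a trend on gene length and GC content (GENCODE, 99.8% of genes) removed per library, a stricter gate, clusters from scanpy 1.11.5, and each mouse left out. The mouse pairs both regions of an animal by its number, and deviations from the group means correlated over 14229 genes by 0.0629 to 0.479 between both libraries of a mouse, in 9 of 9 mice highest with the own one. Counts were simulated in the Hip design of all nuclei with 19778 genes. Of 1.5-fold changes 35.5% were recovered, of 2-fold 53.0% and of 3-fold 84.7%, with 7 false calls among 125 genes called. Of 1.5-fold changes 18.2% were recovered in Hip microglia and 17.7% for the difference between regions in excitatory neurons. Only 62, 66 and 72 genes were changed in the first of these fits, far fewer than were called in the data. These rates may therefore not carry over.

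Named genes were those called against the median of the members in at least 2 types, the 3 highest and the 3 lowest per region and between regions in SPF mice, paralogs, members of known role, and the highest member per type; some genes under this rule are not reported here. Members, lists and this rule were chosen with earlier results of these data known.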

Additional observations from a re-analysis of the deposited data

Results flagged for a closer look

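GF vs SPF differed between Hip and PFC by a test of the difference itself for many members. Past the threshold of edgeR were 75 of 83 members in all nuclei, 76 of 83 in excitatory neurons, 57 of 79 in interneurons, 39 of 72 in oligodendrocytes, 20 of 57 in OPC, 11 of 56 in microglia and 36 of 77 in astrocytes. All of these were higher in Hip except 1 in oligodendrocytes, and the shares of all genes that were higher in Hip were 24.2, 22.6, 19.2, 8.92, 6.73, 4.31 and 10.9% in the same order. Single members with such a difference were Rpl28 at 5.26, Rps2 at 2.92, Rps21 at 1.63 and Rpl7a at 1.61 on the log2 scale, each higher in Hip. Rpl26 had 3.95, with the wide spread between mice given above. All of these differences contain the SPF libraries of PFC that stand apart in depth, mitochondrial UMIs and Gm42418, and their part was not tested.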

How the results depend on the processing

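Of the member counts under the alternatives that leave out no mouse, 209 stayed within 1.5 times the value reported and 41 did not. All counts listed below are of members alone. Shares of all genes are printed above for the trend removed, and for thinning and the stricter gate in GF vs SPF of PFC. For the other fits neither these shares nor the numbers of members tested are given. A change particular to the members cannot be read from those counts. Of the medians under these alternatives, 205 stayed within the median standard error of the members and 45 did not. For the 36 medians beyond 0.2 there were 529 values under an alternative, fits with a mouse left out included, and 526 kept their sign. Medians nearer to 0, such as those of PFC microglia and OPC for GF vs SPF, are not in that count. With the trend on length and GC content removed, the members higher in GF vs SPF in Hip numbered 42 in all nuclei, 42 in excitatory neurons, 12 in interneurons, 12 in oligodendrocytes, 5 in OPC, 5 in microglia and 12 in astrocytes, and those lower in PFC 62 in interneurons, 19 in oligodendrocytes, 11 in microglia and 34 in astrocytes. The same step gave 46, 45 and 4 for GF vs CGF in Hip (all nuclei, excitatory neurons, microglia), 9 in PFC microglia, 22 and 28 for Hip vs PFC in GF mice (all nuclei, excitatory neurons) and 18 for the difference between regions in microglia. It turned Rps21, Rps4x, Rps27l and Rpl11 in PFC to -0.33, -0.55, -0.89 and -0.36. DESeq2 called 18 in Hip OPC and 1 in CGF vs SPF of PFC. Thinning left 0 in PFC OPC, 2 in microglia and 7 in astrocytes for GF vs SPF and 2 in microglia for GF vs CGF. The stricter gate left 1, 2 and 6 in the same 3 types, 1 for GF vs CGF in microglia, and 5 in Hip OPC, 3 in PFC astrocytes and 1 in PFC OPC against the other types. No filter gave 8 in PFC microglia for GF vs SPF and 8 for GF vs CGF. Clusters gave 11 in PFC microglia in both contrasts, and 6 in Hip OPC, 11 in PFC microglia and 21 in PFC astrocytes against the other types. No TMM factors gave 7, 46 and 5 there. Without Gm42418, Malat1 and mitochondrial genes the Hip astrocyte shares of GF and SPF differed by 0.267 percentage points in place of 0.229. The cause was not tested.

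With each mouse left out in turn, 371 counts stayed within 1.5 times and 25 did not. The counts that follow stand without the share of all genes, so a change particular to members cannot be read from them. The counts ran from 17 to 37 in Hip OPC, 5 to 13 in PFC oligodendrocytes, 3 to 5 in PFC microglia and 9 to 14 in PFC astrocytes for GF vs SPF, and from 0 to 2 for CGF vs SPF in PFC. Between regions they ran from 1 to 43 in all nuclei, 7 to 46 in excitatory neurons and 0 to 1 in microglia of GF mice, 9 to 21 in microglia of SPF mice, and 6 to 13 for the difference in microglia. Against the other types, OPC had 0 to 5 in Hip and 1 to 5 in PFC. With the mouse as a replicate block, 43 members were higher in Hip of GF mice, 71 lower in SPF and 77 lower in CGF mice, and 76 passed the test of the difference, so the block changed no such count by over 1.5 times.

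In glia of PFC 29 to 54 members could be tested. Microglia of the SPF and CGF libraries held a median of 667 to 838 UMIs per nucleus against 1527 to 1721 in GF PFC, and numbered 97 to 183 against 295 to 356 nuclei, so depth and number of nuclei cannot be told apart as limits.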
